A study of Mus musculus with 4 samples.

Results

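Immediate early stress-response genes were examined in the salivary glands of mice with and without MyD88, the adaptor protein that carries signals from Toll-like receptors and interleukin-1 family receptors. The genes were chosen by name: Fos, Fosb, Jun, Junb, Egr1, Atf3, Dusp1, Nr4a1, Ier2 and Zfp36. All 10 had a probe on the array and all 10 passed the filter on dim probes, among 22312 genes tested. The samples were total RNA of submandibular plus sublingual gland from Female mice of strain C57/BL6 at 10 weeks of age, as the labels give them. Of the 4 one-color Agilent arrays, 2 were labelled Myd88-null (Myd88-/-) and 2 wild-type (Myd88+/+). The labels name no treatment for either group, and the null allele removes MyD88 from every tissue rather than from one cell type. The study used homozygous offspring of heterozygous parents. Its methods name the submandibular gland as the source of the array RNA, whereas the labels name both glands, and the number of samples it gives for the arrays is not that of the arrays analysed here. The labels do not say whether the arrays of a genotype came from separate mice or from pools, so the p-values measure only the spread between these arrays, which may be technical.

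Immediate early genes are transcribed within minutes of a stimulus, because the factors that switch them on are already present in the resting cell. Growth factors, cytokines and mechanical or thermal stress reach them through the MAP kinases, which act on serum response factor and its partners at CArG boxes and on CREB and ATF proteins at cyclic AMP response elements (CRE). Most of their products are transcription factors, and others end the response by dephosphorylating the kinases or by destroying short-lived mRNAs. The dissection of a tissue is itself a known trigger of these genes.

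Of the 10 genes, 8 had an entry in the RefSeq promoter windows used here (GRCm38.p6, 250 bases before and 50 bases after the annotated start); Egr1 and Ier2 were not analysed in this respect. The windows were searched on both strands for the CRE TGACGTCA, its 5-base core TGACG (contained in the CRE, and added after the other motifs had been searched), the AP-1 site TGANTCA, the EGR site GCGNGGGCG, the TATA box TATAAA and the CArG box. The 250 bases before the start are shown for 5 genes, to let a reader see which of these motifs each gene carries: Fos and Fosb for the AP-1 family, Dusp1 as the gene with the whole CRE, Nr4a1 for its repeated TGACG cores, and Zfp36 as the gene with a CArG box. Capitals mark every match to a searched motif, and each sequence is written 5' to 3' on the strand of the gene. The positions are chr12:85473640-85473889, plus strand for Fos, chr7:19310046-19310295, minus strand for Fosb, chr17:26508473-26508722, minus strand for Dusp1, chr15:101266596-101266845, plus strand for Nr4a1 and chr7:28379229-28379478, minus strand for Zfp36.
Fos: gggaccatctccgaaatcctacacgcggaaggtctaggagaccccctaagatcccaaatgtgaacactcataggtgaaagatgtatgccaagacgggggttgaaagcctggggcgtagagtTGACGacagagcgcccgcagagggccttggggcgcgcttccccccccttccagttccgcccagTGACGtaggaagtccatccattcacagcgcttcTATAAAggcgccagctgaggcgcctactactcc
Fosb: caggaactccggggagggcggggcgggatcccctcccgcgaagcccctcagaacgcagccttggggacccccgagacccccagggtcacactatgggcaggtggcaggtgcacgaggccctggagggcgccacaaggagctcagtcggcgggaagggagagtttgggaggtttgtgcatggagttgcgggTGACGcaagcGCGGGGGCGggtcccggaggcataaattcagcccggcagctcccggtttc
Dusp1: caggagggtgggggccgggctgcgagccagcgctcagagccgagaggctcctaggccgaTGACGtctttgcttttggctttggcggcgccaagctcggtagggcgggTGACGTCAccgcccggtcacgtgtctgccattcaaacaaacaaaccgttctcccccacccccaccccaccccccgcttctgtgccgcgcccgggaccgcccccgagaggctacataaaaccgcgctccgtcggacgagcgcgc
Nr4a1: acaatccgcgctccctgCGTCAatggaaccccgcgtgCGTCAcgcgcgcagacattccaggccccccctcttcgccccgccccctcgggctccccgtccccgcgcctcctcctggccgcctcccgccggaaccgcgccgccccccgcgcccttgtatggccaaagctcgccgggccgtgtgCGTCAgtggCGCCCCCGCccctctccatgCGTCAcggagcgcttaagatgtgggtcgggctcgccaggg
Zfp36: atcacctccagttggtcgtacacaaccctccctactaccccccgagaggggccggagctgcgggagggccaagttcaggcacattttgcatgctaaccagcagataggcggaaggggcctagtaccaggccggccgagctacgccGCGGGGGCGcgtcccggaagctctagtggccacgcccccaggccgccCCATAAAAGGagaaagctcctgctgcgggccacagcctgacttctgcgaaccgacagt

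The TGACG core was found in 6 of the 8 windows (Fos, Fosb, Junb, Atf3, Dusp1 and Nr4a1), against 20.8% of all 32851 windows. Dusp1 alone held the whole CRE, starting at base -143 from the start, which occurs in 1.79% of all windows. The EGR site was found in Fosb at -50, in Nr4a1 at -60 and in Zfp36 at -105, against 5.55% of all windows. The CArG box of Zfp36 began at -58 and occurs in 1.63% of all windows. Bases further than 250 before the start were not searched, so a gene without a match here may hold the motif further upstream. A TATA box stood at -33 in Fos and at 1, just past the start, in Junb, against 13.6% of all windows, and the AP-1 site was found in 0 of the 8 windows, against 7.81% of all windows. These matches describe the letters of each window and say nothing of binding in the gland.

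All 4 arrays lay on 1 slide and were read in 1 scan, so no batch could be compared. Between 52.2% and 74.2% of the 55681 probes were well above background on each array, and no spot was saturated; Myd88-/- array 2 and Myd88+/+ array 1 detected the most. The probe for Myd88 was not lower in the arrays labelled Myd88-/- (1.51 and 1.41) than in those labelled Myd88+/+ (1.15 and 1.07; log2 difference 0.35, SE 0.11, limma adjusted p = 0.264). Which exons the null allele lacks is not given in the sources used here, and the probe may lie outside the deleted part, so it cannot be used to check the labels. All 10 tested acinar, 4 tested sublingual and 9 tested granular convoluted tubule markers of the gland were well above background on all 4 arrays; 1 further sublingual marker on the array, Bpil1, did not pass the filter. Values are log2 signals relative to the 75th percentile of the array, so that 0 is the level of that percentile, and differences are Myd88-/- minus Myd88+/+.

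None of the 10 immediate early genes passed the adjusted threshold of 0.05 in limma, which does not show that their levels were alike. Neither did any of the 22312 genes tested (0%), and by the methods' t-test 0 of the 10 passed as well. Fosb was the 1 gene of the 10 with an unadjusted p under 0.05, by limma as by the methods' t-test, against 16.7% of all genes tested. The arrays of the genotypes did not overlap for 5 of the 10 genes, against 52.0% of all genes. Fosb and Nr4a1 were higher on both Myd88-/- arrays, and Egr1, Dusp1 and Jun were lower on both. No gene differed by more than 2-fold, which 4.79% of all genes did. The median difference over the 10 genes was 0.06, the same as over all genes (0.06), and the median size of a difference regardless of its sign was 0.32 against 0.20 over all genes. With 2 arrays a genotype, an exact permutation test of a single gene cannot go below p = 0.333.

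**Figure D1:**
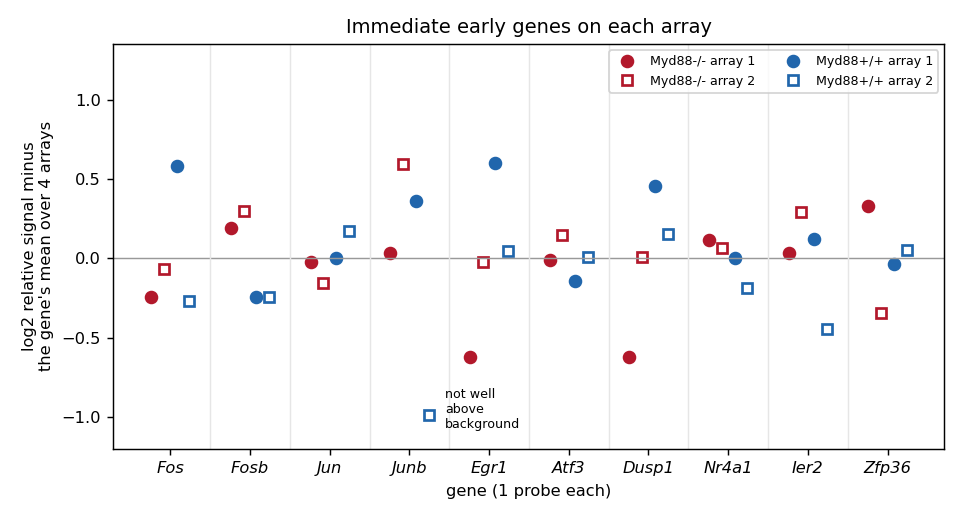
Log2 relative signal of each of the 10 genes on each of the 4 arrays (y axis), minus the gene's own mean over the arrays, with 1 point an array (red Myd88-/-, blue Myd88+/+; filled circles array 1, open squares array 2). The Myd88-/- points lie above both Myd88+/+ points for Fosb and Nr4a1, below both for Egr1, Dusp1 and Jun, and overlap them or lie on either side of them for the other genes.

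Fosb and Fos encode leucine zipper proteins that pair with Jun proteins to form the transcription factor AP-1. Fosb, whose product exists in a full-length and a long-lived truncated form, stood at 0.05 and 0.15 on the Myd88-/- arrays and at -0.39 on both Myd88+/+ arrays. Its levels were thus higher on both Myd88-/- arrays, with the wild-type arrays nearly identical. The difference was 0.49 (SE 0.10, 95% interval 0.20 to 0.78), a 1.40-fold higher signal, with an unadjusted p of 0.0103 and an adjusted p of 0.209 in limma. It lay between 0.44 and 0.54 when any 1 array was left out, with an unadjusted p of 0.0325 without Myd88-/- array 1 and of 0.0520 to 0.0548 without any other array. The probe lies at chr7:19888168-19888227 on the minus strand of mm9 and does not tell the forms apart as far as the files state.

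Fos, the founding gene of the family, was measured by 10 spots of 1 probe on every array (chr12:86817900-86817959, plus strand, mm9). Its level was -2.84 and -2.66 on the Myd88-/- arrays and -2.02 and -2.87 on the Myd88+/+ arrays. Myd88+/+ array 1 stood apart from the other 3, which lay close together, and the genotypes overlapped. The 9 spots kept on Myd88+/+ array 1 ranged from -2.16 to -1.87, all above every one of the 30 spots of the other arrays, the highest of which read -2.39. A further spot on that array, at 0.15, had been marked as an outlier by the scanner software and was left out. The difference was -0.31 (SE 0.33, 95% interval -1.25 to 0.64; adjusted p = 0.688), and it changed sign to 0.12 without Myd88+/+ array 1 and became -0.73 without Myd88+/+ array 2. The high Fos level was thus that of 1 wild-type array.

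**Figure D2:**
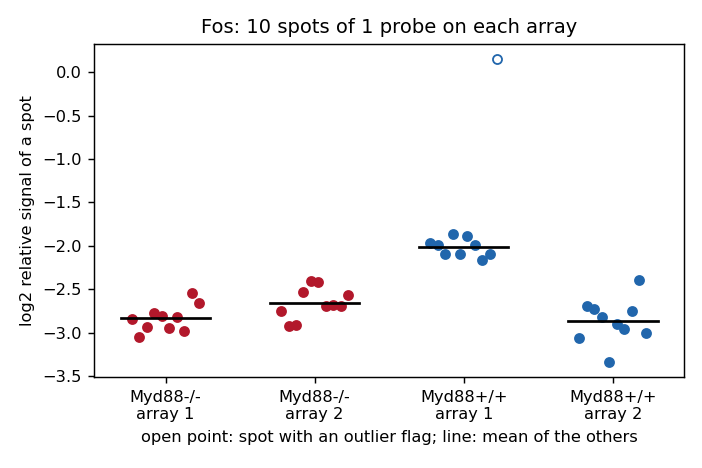
Log2 relative signal of the 10 spots for Fos on each array, with outlier spots drawn as open points and the mean of the others as a line. The 9 kept spots of Myd88+/+ array 1 lie between -2.16 and -1.87, above all 30 spots of the other 3 arrays.

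Jun and Junb encode the partners of the Fos proteins, Jun being the strong activator of the pair and JunB the weaker one that can oppose it. Jun read 2.65 and 2.52 on the Myd88-/- arrays and 2.67 and 2.84 on the Myd88+/+ arrays. The Myd88-/- values were both lower, but by as little as 0.02 between the nearest arrays. The difference was -0.17 (SE 0.12, 95% interval -0.53 to 0.18; adjusted p = 0.540). Junb read -3.54 and -2.98 on the Myd88-/- arrays, and -3.22 and -4.56 on the Myd88+/+ arrays. Its probe was dim, as were those of Fos and Zfp36, which were well above background on all 4 arrays. The genotypes overlapped, and Junb passed the filter through the Myd88-/- arrays alone, as it was not well above background on Myd88+/+ array 2. Its difference of 0.63 (SE 0.54, 95% interval -0.91 to 2.17; adjusted p = 0.607) became -0.04 without that array and 1.30 without Myd88+/+ array 1.

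Atf3 encodes a stress-induced ATF family factor that binds CRE and AP-1 sites and mostly represses, and it is a known brake on Toll-like receptor responses in macrophages. It read -1.02 and -0.86 on the Myd88-/- arrays and -1.15 and -1.0 on the Myd88+/+ arrays. The ranges overlapped, and the 4 arrays spanned little. The difference was 0.14 (SE 0.12, 95% interval -0.22 to 0.49; adjusted p = 0.629).

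Egr1 encodes a zinc finger factor that binds GC-rich EGR sites and is a classic target of serum response factor. It read -0.64 and -0.04 on the Myd88-/- arrays and 0.58 and 0.03 on the Myd88+/+ arrays. Both Myd88-/- arrays were lower, although Myd88-/- array 2 and Myd88+/+ array 2 nearly met. The difference was -0.65 (SE 0.31, 95% interval -1.54 to 0.25), a 1.57-fold lower signal, with an unadjusted p of 0.112 and an adjusted p of 0.397. It was the largest difference in size among the 10 genes, larger than that of 89.4% of all genes tested, and it ranged from -0.95 (without Myd88-/- array 2) to -0.35 (without Myd88-/- array 1). Nr4a1, an orphan nuclear receptor (Nur77) induced by calcium, growth factors and antigen receptor signals, read 5.58 and 5.54 on the Myd88-/- arrays and 5.47 and 5.28 on the Myd88+/+ arrays. The Myd88-/- values were both higher, though the gap between the nearest arrays was smaller than the spread within the wild type. The difference was 0.18 (SE 0.12, 95% interval -0.16 to 0.52; adjusted p = 0.507).

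Among the genes whose products end the response, Dusp1 encodes the nuclear phosphatase MKP-1, which inactivates p38, JNK and ERK. It read -0.40 and 0.22 on the Myd88-/- arrays and 0.67 and 0.37 on the Myd88+/+ arrays. Both Myd88-/- arrays were lower, array 1 clearly more so than array 2. The difference was -0.61 (SE 0.27, 95% interval -1.39 to 0.16), a 1.53-fold lower signal, with an unadjusted p of 0.0909 and an adjusted p of 0.364, and it ranged from -0.93 (without Myd88-/- array 2) to -0.30 (without Myd88-/- array 1). Zfp36 encodes tristetraprolin, which binds AU-rich elements and speeds the decay of cytokine and immediate early mRNAs. It read -2.47 and -3.14 on the Myd88-/- arrays and -2.83 and -2.75 on the Myd88+/+ arrays. The wild-type arrays lay between the Myd88-/- arrays, with a difference of -0.01 (SE 0.27, 95% interval -0.78 to 0.75; adjusted p = 0.985). Ier2, a nuclear protein of less defined function, read -1.47 and -1.21 on the Myd88-/- arrays and -1.38 and -1.95 on the Myd88+/+ arrays. The genotypes overlapped, and the difference of 0.32 (SE 0.25, 95% interval -0.38 to 1.03; adjusted p = 0.565) was 0.04 without Myd88+/+ array 2.

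**Figure D3:**
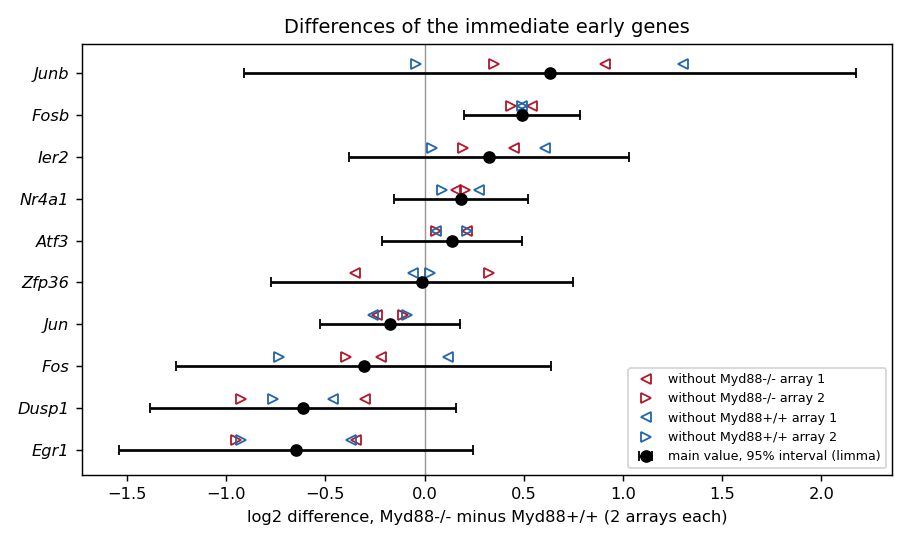
Log2 difference (Myd88-/- minus Myd88+/+) of each of the 10 genes with its 95% interval from limma (black), and open triangles for the difference without each array in turn. The interval of Fosb, 0.20 to 0.78, is the one that does not include 0, before adjustment over 22312 genes.

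The intervals left room for differences of either sign in 9 of the 10 genes. They were narrow for Jun, Nr4a1 and Atf3, where both bounds lay within 0.53 of 0. They were wide for Junb, which the data bounded only between -0.91 and 2.17.

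The arrays differed in how many probes they detected, and the average level of the genes was higher on those that detected more. Centered on its own mean, the average profile of the 10 genes was 0.08 on Myd88-/- array 2 and 0.17 on Myd88+/+ array 1, which detected 68.4% and 74.2% of probes, and -0.08 and -0.17 on Myd88-/- array 1 and Myd88+/+ array 2, which detected 52.2% and 55.1%. Single genes differed from this average, and Jun and Zfp36 were higher on the array with fewer detected probes in both genotypes. The part of detection in these levels was not tested. Set against the array of the other genotype with the closer detection, Fosb was higher in both pairs (0.44 for Myd88-/- array 1 minus Myd88+/+ array 2, and 0.54 for Myd88-/- array 2 minus Myd88+/+ array 1). Egr1 was lower in both pairs by nearly the same amount, -0.67 and -0.62. Dusp1 (-0.77 and -0.45) and Jun (-0.20 and -0.15) were lower in both. Junb (1.02 and 0.24), Ier2 (0.48 and 0.17) and Nr4a1 (0.30 and 0.06) were higher in both. The 1.02 of Junb rests on its value on Myd88+/+ array 2, which was not well above background. The arrays of Fosb, Egr1, Dusp1, Jun and Nr4a1 did not overlap between genotypes. Any pairing then gives the same sign, so for these genes the signs of the pairs are no check on detection. The sign differed between the pairs for Fos (0.03 and -0.64), Atf3 (-0.02 and 0.29) and Zfp36 (0.28 and -0.31).

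**Figure D4:**
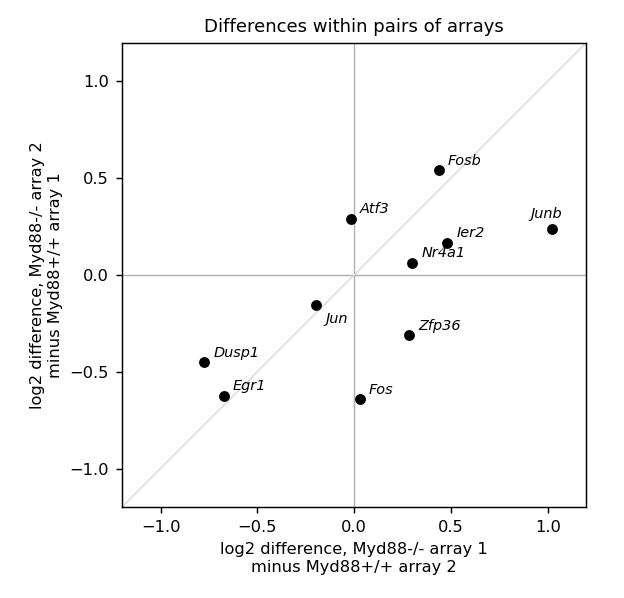
Log2 difference of each of the 10 genes (1 point a gene) in the pair Myd88-/- array 1 minus Myd88+/+ array 2 (x axis) and in the pair Myd88-/- array 2 minus Myd88+/+ array 1 (y axis), with the line of equal values in gray. The 7 genes of 1 sign in both pairs lie in the lower left and upper right of the plot, Egr1 (-0.67 and -0.62) close to the line, and Fos, Atf3 and Zfp36 lie outside them.

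The other genes of the response were described from lists named for their roles. Of 45 further immediate early genes on the array, 41 were tested, and their median difference was -0.24 against 0.06 over all genes. None passed the adjusted threshold. Of the 41, 30 were lower and 11 higher in Myd88-/- arrays, and 9017 of all 22312 genes were lower. At an unadjusted p under 0.05 in limma, 11 genes were lower and 2 higher (6.83% of all genes were lower and 9.82% higher at that level). The list was chosen with earlier results of these data known, so these counts are a description and not a test. The arrays of 21 lower genes did not overlap between genotypes, against 18.7% of all genes, and those of 7 higher genes, against 33.2%. The median stayed between -0.33 and -0.19 when any 1 array was left out, but the count of 11 lower genes did not hold. It was 3 without Myd88-/- array 1, 3 without Myd88+/+ array 1, 5 without Myd88+/+ array 2, 5 with the methods' t-test and 2 with median scaling.

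Dusp2, a MAP kinase phosphatase found mainly in immune cells, had the largest difference on the list. It read -1.77 and -1.90 on the Myd88-/- arrays and 2.07 and 0.92 on the Myd88+/+ arrays. Both wild-type arrays were far higher, with a difference of -3.32 (SE 0.43; unadjusted p = 0.00202, adjusted p = 0.194). Klf2, a factor of endothelium and quiescent lymphocytes, read 0.91 and 1.55 on the Myd88-/- arrays and 2.56 and 2.03 on the Myd88+/+ arrays (difference -1.07, SE 0.32, adjusted p = 0.262). Egr2, a relative of Egr1, read -2.99 and -2.37 on the Myd88-/- arrays and -1.31 and -2.19 on the Myd88+/+ arrays (difference -0.93, SE 0.40, adjusted p = 0.361). Both genes were thus lower on each Myd88-/- array. Dusp4, a nuclear phosphatase of the same family as Dusp1, went the other way, reading -1.29 and -0.59 on the Myd88-/- arrays against -1.53 and -1.90 (difference 0.77, SE 0.30, adjusted p = 0.330).

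Of the AP-1 and ATF partners, 21 of 22 were tested, with 9 higher, 12 lower and a median difference of -0.04. Those with an unadjusted p under 0.05 were 3 higher and 3 lower, against 9.82% and 6.83% of all genes. Crem, the cyclic AMP response modulator, was 0.54 higher (SE 0.10, adjusted p = 0.204), and Atf5, a factor of the stress response, was 0.65 higher (SE 0.17, adjusted p = 0.233). Batf3, which pairs with Jun in dendritic cells, differed by -0.86 (SE 0.17, adjusted p = 0.204). None of these 3 passed the adjusted threshold.

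The 25 upstream kinases and ternary complex factors, all tested, had a median difference of 0.07, with 15 higher and 10 lower. The 4 named from this list were the kinases Rps6ka5 (-0.51, SE 0.20), Map2k6 (-0.36, SE 0.11) and Mapk9 (0.31, SE 0.10), and the ternary complex factor Elk3 (-0.34, SE 0.096), with adjusted p from 0.253 to 0.323. Of 17 described targets of AP-1, EGR1 and NR4A factors, 12 were tested, 5 higher and 7 lower, with a median of 0.00. Nab2, a corepressor that EGR1 induces and that restrains it, differed by -0.39 (SE 0.11, adjusted p = 0.250), and Hbegf, an EGF receptor ligand, by 0.39 (SE 0.14, adjusted p = 0.311).

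Genes whose mRNAs carry AU-rich elements, the substrates of tristetraprolin, were mixed. Of 14 on the array, among them Zfp36 itself, 9 were tested, 5 higher and 4 lower with a median of 0.01. Cxcl1, a neutrophil chemokine, was 0.71 higher (SE 0.20, adjusted p = 0.251), and Ier3 and Pim1 differed by -0.42 (SE 0.10, adjusted p = 0.226) and -0.38 (SE 0.10, adjusted p = 0.248). Ier3 and Pim1 are also on the list of other immediate early genes and among its lower genes, and the lists share some further genes. Il1b, an inflammatory cytokine, differed by 0.18 (SE 0.13, adjusted p = 0.537). The heat shock genes, which report another branch of acute stress, had 10 of 13 tested genes higher (13295 of all 22312 genes were) and a median of 0.05, close to that of all genes. The split became 6 higher and 7 lower with quantile normalization or median scaling, 7 and 6 with normexp, and 5 and 8 without Myd88+/+ array 1. Hspb8, a small heat shock protein, read 3.42 and 3.57 on the Myd88-/- arrays and 2.85 and 2.75 on the Myd88+/+ arrays (difference 0.69, SE 0.12, adjusted p = 0.199), while Dnajb1, an HSP70 cochaperone, differed by -0.34 (SE 0.13, adjusted p = 0.313). Over the 6 lists together, without the 10 genes, 8 of 114 tested genes were higher and 18 lower at an unadjusted p under 0.05, against 9.82% and 6.83% of all genes, and 11 of the 18 were on the list of other immediate early genes.

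**Figure D5:**
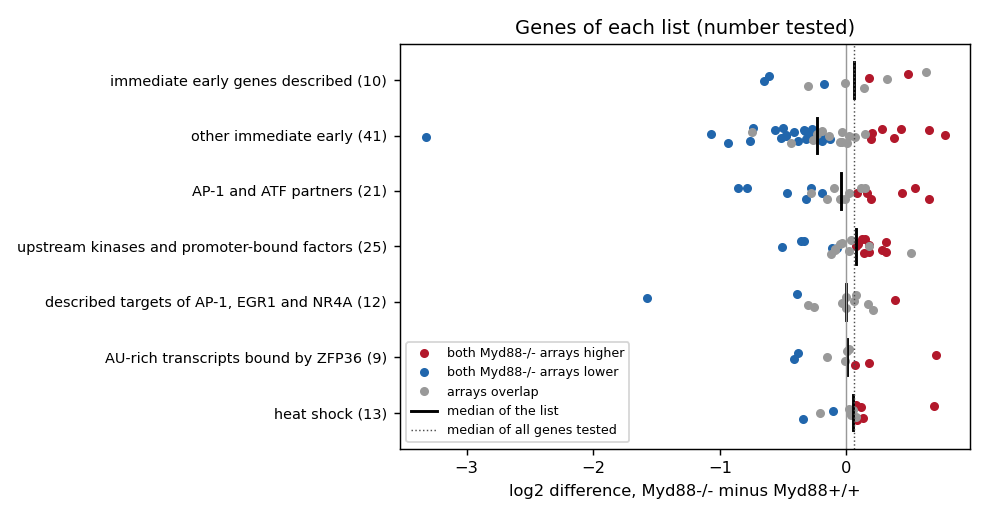
Log2 difference (Myd88-/- minus Myd88+/+) of every tested gene in the 10-gene set and in each related list, with 1 point a gene, colored by whether both Myd88-/- arrays were higher (red), lower (blue) or overlapped the Myd88+/+ arrays (gray), and a bar at the median of each list. The medians run from -0.24 for the other immediate early genes to 0.07 for the upstream kinases, against 0.06 for all genes, and Dusp2 lies lowest at -3.32.

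Several of these genes are also expressed in lymphocytes, fat, vessels and muscle, and the markers of some of these tissues differed between the arrays. In bulk tissue, fewer cells of a type and less RNA per cell cannot be told apart. The methods of the study describe dissecting lymph nodes and fatty tissue away from the glands, and how complete this was for each array is not given. All 8 tested B cell markers were lower in the Myd88-/- arrays, with a summed linear signal of 3.39 and 3.29 against 20.8 and 11.5 in Myd88+/+ arrays. Only 5 of the 8 were well above background on each Myd88-/- array, and Ms4a1 and Faim3 were among those that were not. By flow cytometry of submandibular glands from male mice, the study reported more B cells in Myd88-/- than in Myd88+/+ mice. Those are counts of cells, and they go in the other direction from the RNA here. All 11 tested T cell markers were lower on average (15.4 and 14.6 against 29.1 and 22.2), of which Myd88-/- array 1 detected 7 and Myd88-/- array 2 detected 10, Cd8a being the one detected on neither. All 9 tested adipocyte markers were lower on average (170 and 268 against 381 in each of the Myd88+/+ arrays), and all of these were well above background throughout.

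All 12 tested skeletal muscle markers were lower (2.99 and 3.19 against 31.8 and 175), of which 7 were well above background on each Myd88-/- array. Of 7 tested neutrophil markers, 6 were lower, 5 of them without overlap (18.7% of all genes were) and 3 by more than 2-fold (4.79% of all genes differed so in either direction). Their sum overlapped (161 and 170 against 155 and 185) because it was carried by the bright Csf3r probe (difference -0.03), and Myd88-/- array 1 detected 5 of the 7 and Myd88-/- array 2 detected 6. The 12 macrophage markers were 6 higher and 6 lower, with overlapping sums of 45.5 and 40.1 against 49.5 and 37.6. The 8 endothelial markers were 3 higher and 5 lower, with overlapping sums of 34.6 and 37.7 against 28.5 and 36.0, carried mostly by Kdr (difference 0.34). At an unadjusted p under 0.05 in limma, 2 were lower (Cdh5, -0.64, and Tie1, -0.57), against 6.83% of all genes. At that level 1 was higher (Emcn, 0.36), against 9.82% of all genes.

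Markers of the gland epithelium went the other way in part. Of 10 tested submandibular acinar markers, 8 were higher in the Myd88-/- arrays (13295 of all 22312 genes were). At an unadjusted p under 0.05 in limma, 7 of them were higher, against 9.82% of all genes. The sums were 10835 and 10481 against 8039 and 8530. Of 8 duct markers, 5 were higher, close to the share of all genes (13295 of 22312), with sums of 449 and 457 against 308 and 317. Those sums were carried mostly by Krt18 (difference 0.54), and Krt19 (-0.28), Foxi1 (-0.17) and Kit (-0.01) were lower. The 4 tested sublingual markers were 2 higher and 2 lower (sums 1479 and 1332 against 709 and 801), the 9 granular convoluted tubule markers 5 higher and 4 lower (4095 and 4039 against 3490 and 3969), and the 6 myoepithelial markers 2 higher and 4 lower (94.2 and 92.4 against 80.3 and 104). The higher sublingual sums were carried by Smgc (difference 1.57), which is also on the acinar list. The other sublingual markers differed by 0.02 (Galnt12), -0.13 (Muc19) and -2.16 (Gal3st2). The part of these cell types in the levels of Dusp2, Klf2, Egr1, Dusp1 and the other lower genes was not tested. In the Myd88+/+ group, the summed muscle signal was higher on array 2 and the summed B and T cell signals on array 1. Fos, Egr1, Dusp1, Dusp2, Klf2 and Egr2 were also higher on array 1, as were Junb, Ier2 and Nr4a1, whereas Jun, Atf3 and Zfp36 were lower. That array also detected the most probes (74.2%). Between the Myd88-/- arrays, Fos, Egr1, Dusp1, Klf2 and Egr2 were higher on array 2 and Dusp2 on array 1, with B cell sums of 3.39 on array 1 and 3.29 on array 2. How these levels go together was not tested.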

How the data were processed

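Total RNA of the glands was labelled with Cy3 and hybridized by the authors to 1-color Agilent arrays, and the deposited scanner files hold spot intensity values (gProcessedSignal) together with quality flags (other codes), made per the file headers with Agilent Feature Extraction 10.7.3.1. This processing had already subtracted background; probe coordinates are those of mm9. A processed table with 4 value columns was not used, because its columns could not be assigned to samples. Here, log2(gProcessedSignal) minus each array's 75th percentile over non-control spots was taken, outlier spots were left out, and spots of a probe were averaged. A probe was tested if over 0.5 of its spots were well above background on both arrays of a genotype, and each gene was represented by its tested probe of highest mean signal. Genotypes were compared with limma 3.58.1 (lmFit and eBayes, R 4.3.3), two-sided, on 4 arrays with no covariates, and p-values were adjusted by Benjamini-Hochberg over all 22312 genes at a threshold of 0.05. The number of arrays, 2 a genotype, limits the precision. The scripts were tested on simulated data.

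The 10 genes and all lists were chosen with earlier results of these data known. Named genes were the 10, up to 4 genes a list with the largest difference among those whose arrays did not overlap, the 5 genes nearest to the average profile, Myd88, and marker lists; some genes that this rule names are not reported here. Levels of different probes were not compared. There were 17 alternatives, 1 of them (a crossed pairing) added after seeing the data: background correction, scaling, filter, choice of probe, outlier spots, moderation, the methods' t-test, the replicate number as a block, and leaving out each array.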

Additional observations from a re-analysis of the deposited data

How the results depend on the processing

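None of the 10 genes passed the adjusted threshold under any of the 17 alternatives, and the lowest adjusted p was 0.0991 (Fosb, trended and robust moderation). Over all genes the count of calls, 0 as reported, became 79 with normexp background correction, 402 with median scaling, 482 with trended and robust moderation and 1 with the methods' t-test. With median scaling the SE was 0.54 for each of the 10 genes, Dusp2 and Myd88 alike. The p-values of that setting thus followed the size of a difference and not the gene's own spread. At an unadjusted p under 0.05, the count among the 10 genes, 1 as reported, became 2 with normexp, 2 with trended and robust moderation and 0 with median scaling, and when 1 array was left out it stayed 1, but the gene was Fosb, Dusp1, Junb or Fos in turn. In the related lists the count of adjusted calls, 0 as reported, became 1 with median scaling (Dusp2) and 3 with trended and robust moderation (Dusp2, Sgk1 and Hspb8). The split of all genes at an unadjusted p under 0.05, 2190 higher and 1525 lower, was 1754 and 1805 with the 75th percentile over detected probes, 1700 and 1660 after quantile normalization, 240 and 755 with median scaling, 1238 and 1172 with the replicate block, 1350 and 957 without Myd88+/+ array 1, and 1097 and 1095 without Myd88+/+ array 2. The difference of Zfp36 reversed to 0.097 with normexp and ran from -0.35 to 0.32 when 1 array was left out. When 1 array was left out, Fos ran from -0.73 to 0.12 and Junb from -0.043 to 1.30. With normexp the difference was -0.06 for Fos and 0.24 for Junb, against -0.31 and 0.63 as reported. The cause was not tested. The stricter filter left out Junb.

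The replicate numbers share only a number: same-numbered arrays deviated oppositely (r = -0.373). With the replicate number as a block, 0 of all genes and 0 of the 10 were called, and 1 of the 10 (Fosb) kept an unadjusted p under 0.05. With the crossed pairing, added after seeing the data, 0 genes were called and 3 of the 10 genes (Fosb, Egr1 and Dusp1) had an unadjusted p under 0.05, as did 2317 higher and 1840 lower genes of all 22312.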

Other observations

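The 5 tested features whose 4 values, centered on their mean, lay nearest to the average profile of the 10 genes were Dhx40, an RNA helicase (root mean square distance 0.0077 on the log2 scale), Tssc1 and Qpct (0.016 each), and the probes A_55_P2170464 (0.0043) and A_55_P2073971 (0.013), which have no gene name in the files. Dhx40 read 1.93 and 2.08 on the Myd88-/- arrays and 2.18 and 1.82 on the Myd88+/+ arrays. Like the average of the 10 genes, it was higher on Myd88-/- array 2 and Myd88+/+ array 1. With 4 arrays and 22312 genes, close matches arise for many profiles, and no shared control is implied.

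The patterns of single genes differed from this average. For Egr1 the nearest named genes were Krtap16-10 (0.018), Cpm (0.040) and Ptpn7 (0.048), for Dusp1 Cdk5r1 (0.020), Klra8 (0.022) and Anks6 (0.024), and for Fosb 4930568D16Rik (0.0098), Ubash3b (0.013) and Aldh1l2 (0.016). These were chosen after their values were seen.

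In the heat shock list, the abundant chaperones Hsp90aa1 (difference 0.13, SE 0.099, adjusted p = 0.566) and Hspa8 (0.11, SE 0.11, adjusted p = 0.643) did not pass the threshold.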
